A study of Homo sapiens with 6 samples.

Results

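The miR-130 and miR-301 family with miR-454 is a group of miRNAs defined by a shared seed. Its members were taken by name from the probes of the arrays, as hsa-miR-130a-3p, hsa-miR-130b-3p, hsa-miR-301a-3p, hsa-miR-301b and hsa-miR-454-3p, and all 5 were found among 2555 human miRNA probes. The rule used names alone and no measured value, though the members were chosen with earlier results of these data known. The RNA came from HuCCT1 cells (HuccT1 in the labels), an established line of human cholangiocarcinoma (CCA), and was read on 6 arrays, 3 per group. The control cells received 0 ng/ml TGF-β and the treated cells 10 ng/ml TGF-β, both for 72 h, and the question was which miRNAs differ after exposure to this inducer of epithelial-mesenchymal transition (EMT). A single cell line was used, and the labels do not say whether the arrays of a group came from separate cultures, so that the p-values measure the spread between these arrays.

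A miRNA guides an Argonaute protein to mRNAs that pair with its seed, the stretch from base 2 to base 8, and lowers the translation or stability of those mRNAs. Members of one seed family can therefore reach largely overlapping targets. The family is known for targets that include PPARG, a nuclear receptor of lipid metabolism, and SMAD4, the common mediator of TGF-β signals. Members of the family have been described as raised in several carcinomas.

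The mature sequences are shown because the seed defines the family, and because the bases outside it are what a probe can use to tell members apart. Sequences of 4 members were read from the RefSeq miRNA table (GRCh38.p14), where the probe named miR-301b was matched to miR-301b-3p. The remaining member, miR-130a-3p, had no entry there, so its sequence and its identity with the other members are not given. Capitals mark bases 2 to 8, counted from 1 at the 5′ end.
miR-130b-3p: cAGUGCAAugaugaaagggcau
miR-301a-3p: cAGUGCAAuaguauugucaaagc
miR-301b: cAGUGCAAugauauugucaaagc
miR-454-3p: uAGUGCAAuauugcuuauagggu
All 4 carry the seed AGUGCAA. MiR-301a-3p and miR-301b were identical at 21 of 23 bases and differed by A10G and G11A, miR-301a-3p first. MiR-130b-3p and miR-301b shared their first 12 bases and then diverged, so that 13 of 22 aligned bases were identical. MiR-454-3p was the member with U as its first base, and it matched miR-301a-3p at 13 of 23 bases. How far the probes cross-hybridize between members is not given in the sources used here and was not tested.

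The members lie at 3 loci. The mature miR-301b (chr22:21653025-21653047) and miR-130b-3p (chr22:21653354-21653375) are on the plus strand, with 306 bases between them, and both precursors lie within the transcribed pseudogene LOC107985532. The mature miR-454-3p (chr17:59137787-59137809) and miR-301a-3p (chr17:59151149-59151171) are on the minus strand, 13339 bases apart, and both precursors lie within SKA2, a gene of the spindle and kinetochore associated complex. MIR130A is on chromosome 11 within the non-coding gene MIR130AHG. Each locus is on a chromosome of its own.

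Detection was read against the 229 blank spots of each array. A probe was taken as detected when its brightness exceeded the blank mean by more than 2 SD of the blank spots, and signals are given as normalized signals, that is brightness minus the blank mean, scaled to a median of 25 over the 292 probes that every array detected. Between 327 and 464 human probes were detected per array, and the 323 miRNAs with detection throughout the control arrays, the TGF-β arrays or both entered the comparison as expressed. Of 5 epithelial marker miRNAs, 4 were detected on every array and the fifth, miR-429, on 5 arrays. MiR-122-5p of hepatocytes, 4 stromal markers and miR-126-3p of endothelium were detected on no array, and of 5 blood markers 1 was detected, miR-223-3p on 1 array. The names of the scanner files put the control arrays and TGF-β array 1 in one set and TGF-β arrays 2 and 3 in another. These sets were read as chips, which no label or header states.

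In HuCCT1 cells the family was measured through miR-130a-3p and miR-130b-3p, which were detected on all 6 arrays. MiR-301a-3p was detected on 2 arrays and miR-454-3p on 1, all of them control arrays, and miR-301b on none. Both tested members had signals with TGF-β that overlapped those of the controls, and neither differed by more than the spread between arrays. These 2 members were the only ones that passed the filter on dim probes.

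MiR-130a-3p, the member from chromosome 11, lay 18.8 to 40.8 SD above the blank mean, so that an SD of the blank spots amounted to between 2.45% and 5.33% of its signal. In the controls its normalized signal read 37.3, 40.3 and 36.5 (arrays 1, 2 and 3), and after TGF-β it read 35.4, 39.6 and 50.3. The lowest and the highest of the 6 signals were both from TGF-β arrays, and the control signals lay between them. The means were 38.0 ± 2.03 (SD, n = 3) and 41.8 ± 7.71 (SD, n = 3), a ratio of 1.10. TGF-β minus control came to 0.12 on the log2 scale (SE 0.20, limma adjusted p = 0.99), with a 95% interval from -0.34 to 0.58. On the linear scale this interval runs from 0.792-fold to 1.49-fold. A 2-sided exact permutation test gave p = 0.70, where 3 arrays against 3 cannot go below 0.10. The coefficient of variation was 5.33% over the control arrays and 18.5% over the TGF-β arrays, and the larger spread came from TGF-β array 3.

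MiR-130b-3p, the member next to miR-301b, lay 4.69 to 11.2 SD above the blank mean. Normalized signals of 10.2, 12.8 and 6.31 were read in controls 1, 2 and 3, and of 8.63, 9.49 and 13.2 after TGF-β. Control array 3 held the lowest signal and TGF-β array 3 the highest, and between them TGF-β arrays 1 and 2 lay below control arrays 1 and 2. The means were 9.76 ± 3.26 (SD, n = 3) and 10.4 ± 2.42 (SD, n = 3), a ratio of 1.07. On the log2 scale TGF-β minus control came to 0.13 (SE 0.30, limma adjusted p = 0.99), with a 95% interval from -0.55 to 0.81, or from 0.683-fold to 1.76-fold. The exact permutation test gave p = 0.80. One SD of the blank spots amounted to between 8.96% and 21.3% of its signal.

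**Figure D1:**
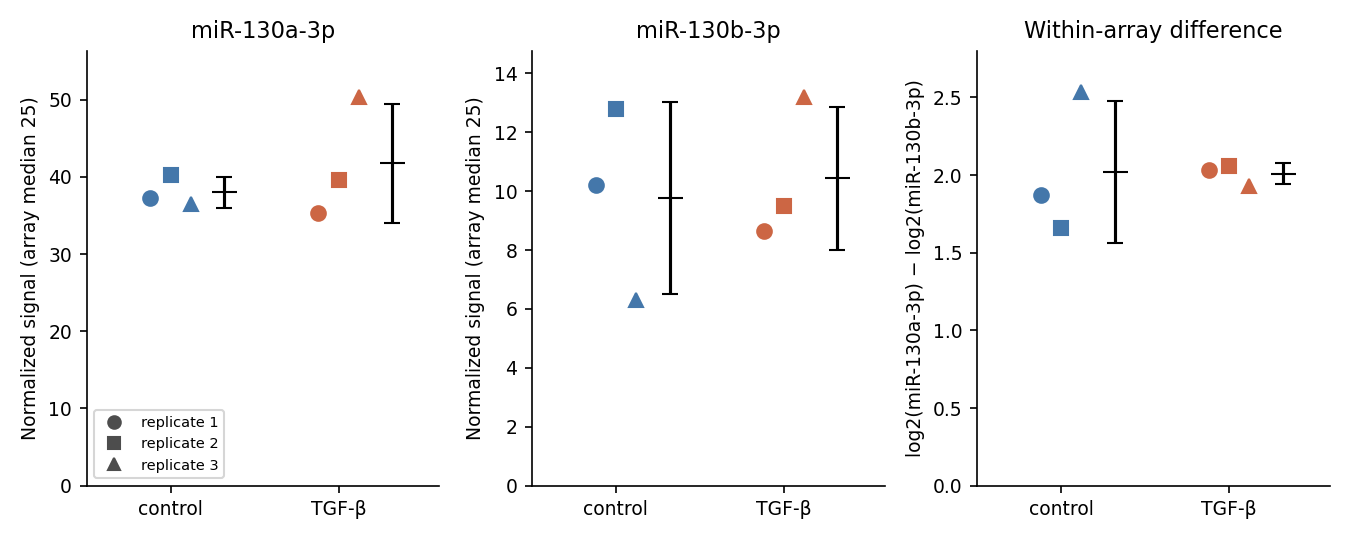
Normalized signal of miR-130a-3p (left) and miR-130b-3p (middle) on each array, on linear axes that start at 0, and the difference of their log2 normalized signals within each array (right). Symbols mark replicate numbers, and the black bars give the mean ± SD of 3 arrays. The control and TGF-β arrays overlap in all 3 panels, and TGF-β array 3 is the highest array for both miRNAs, at 50.3 and 13.2.

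The difference between miR-130a-3p and miR-130b-3p within an array does not depend on how that array was scaled, so it was used to ask whether the 2 members changed unequally. It shows unequal change and says nothing about which miRNA is more abundant, since the probes differ. On the log2 scale controls 1, 2 and 3 had differences of 1.87, 1.66 and 2.53, and the TGF-β arrays had 2.03, 2.06 and 1.93. The TGF-β arrays lay close together, inside the range of the control arrays. The means were 2.02 ± 0.46 (SD, n = 3) and 2.01 ± 0.068 (SD, n = 3), and they differed by -0.011 (exact permutation p = 1.00, 2-sided, where 0.10 is the lowest it can give). Without control array 3, where miR-130b-3p was lowest, the difference between the groups was 0.25 (exact permutation p = 0.10). Every TGF-β array then lay above the controls that remained. Without control array 2 the difference was -0.19 (exact permutation p = 0.70). Normexp background with an offset of 50, in place of the blank mean, gave a group difference of 0.20 (exact permutation p = 0.10). The offset is added before the log2, so there the within-array difference also depends on the brightness of the array. Its part in the 0.20 was not tested. With single control arrays left out, the sign of the difference between the groups was therefore not stable either. This was the only pair of the 4 planned that could be used, since the other 3 pairs each hold a member that was not detected on every array.

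The 2 members tested were read against all expressed miRNAs. With limma, 0 of 323 miRNAs or 0% reached an adjusted p under 0.05, and 21 or 6.5% had an unadjusted p under 0.05, while the methods' t-test gave 1 after adjustment, miR-4521, a name given after its value was seen. Neither miR-130a-3p nor miR-130b-3p was among them. The groups did not overlap for 32 expressed miRNAs, or 9.91%, and both members overlapped. With single arrays left out, that count was 40 (12.4% of those expressed) without control array 1, 67 (18.1%) without control array 2 and 51 (15.4%) without control array 3. It was 78 (23.3%) without TGF-β array 1, 45 (13.9%) without TGF-β array 2 and 103 (30.4%) without TGF-β array 3. Fewer arrays overlap less often by construction, and why the counts differ between removals was not tested. The median log2 change of all expressed miRNAs was 0.013, with quartiles at -0.13 and 0.16. The changes of miR-130a-3p and miR-130b-3p stood at the 70.6 and 72.8 percentiles, counted from the lowest, and lay 0.11 and 0.12 above the median.

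**Figure D2:**
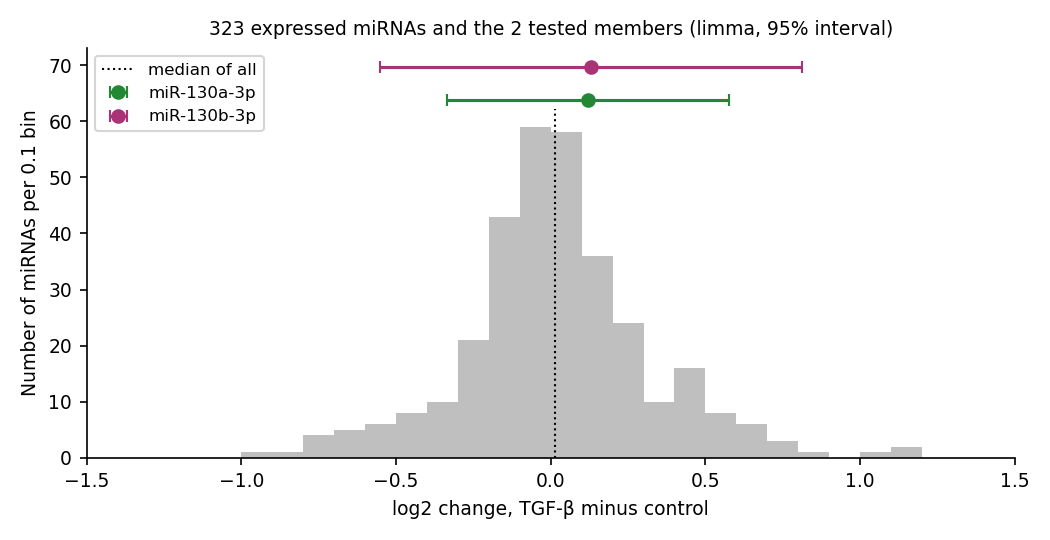
Histogram of the log2 changes (TGF-β minus control, x axis) of 323 expressed miRNAs in bins of 0.1, with the dotted line at their median. The points above it are miR-130a-3p at 0.12 and miR-130b-3p at 0.13, and the bars are their limma 95% intervals, which both include 0 and the median.

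The sign of both changes depended on the scaling and on single arrays. The authors' own normalized values of miR-130a-3p were 98.3, 58.7 and 66.1 for the controls and 47.3, 87.6 and 68.9 after TGF-β, a ratio of means of 0.913. Those of miR-130b-3p were 27.0, 18.8 and 11.4 for the controls and 11.6, 21 and 18.1 after TGF-β, a ratio of 0.886. The deposited values thus ordered the control arrays differently, with control array 1 the highest for both miRNAs. On the log2 scale the changes were -0.14 and -0.13 in these values, where the median of all miRNAs was -0.27, so that relative to the median both members were again higher, by 0.13 and 0.14. With each array scaled on its own detected probes, the changes were -0.095 and -0.084, with a median of -0.20, and with the 75th percentile as the scale they were 0.0064 and 0.017, with a median of -0.10. Without TGF-β array 3 they were -0.022 and -0.050, and without control array 3 that of miR-130b-3p was -0.15. Chip and treatment overlapped in part. With the chip as a block, which sets TGF-β array 1 against the controls of the same chip, the changes were -0.10 and -0.12 (limma adjusted p = 0.91 and 0.95), below the median of 0.044, and the 4 arrays of that chip alone gave the same 2 values. TGF-β arrays 2 and 3 had no control on their chip, and for these arrays chip and treatment cannot be told apart.

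**Figure D3:**
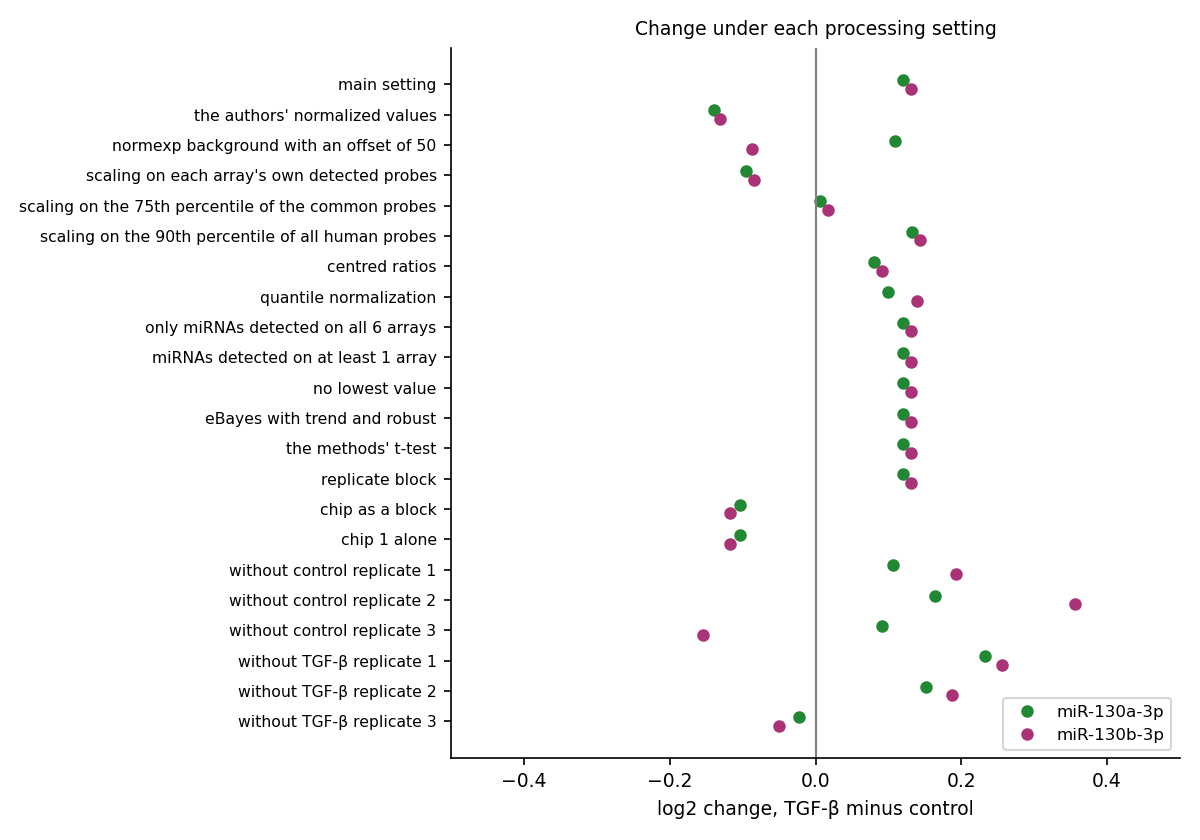
Log2 change (TGF-β minus control, x axis) of miR-130a-3p and miR-130b-3p in the reported setting (top) and in 21 alternative settings. Points lie on both sides of 0 for each miRNA, from -0.14 to 0.23 for miR-130a-3p and from -0.15 to 0.36 for miR-130b-3p, and none passed the adjusted p.

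MiR-301a-3p and miR-454-3p, the 2 members within SKA2, were close to the blank spots. In controls 1, 2 and 3 miR-301a-3p lay 3.93, 0.20 and 2.20 SD above the blank mean, and after TGF-β it lay -1.32, 0.41 and 0.65 SD from it. It was thus detected on control arrays 1 and 3, at normalized signals of 3.59 and 2.29. MiR-454-3p lay at 2.64, 0.25 and 0.25 SD in the controls and at -0.65, 0.74 and 0.45 SD after TGF-β. It was detected on control array 1, at a normalized signal of 2.41. On TGF-β arrays 2 and 3 miR-454-3p stood higher, in SD of the blanks, than on control arrays 2 and 3.

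What an array could detect differed between arrays. The detection limit, as a normalized signal, stood at 1.83, 4.30 and 2.08 for controls 1, 2 and 3 and at 3.68, 2.09 and 3.85 for the TGF-β arrays. A signal of 3.59, that of miR-301a-3p on control array 1, was therefore under the limit on control array 2 and on TGF-β arrays 1 and 3. On TGF-β array 2, where the limit was close to that of control array 3, the measured value of miR-301a-3p was 0.43 and that of miR-454-3p 0.78, both under the limit. Neither miRNA allowed a lower bound above 1 for the ratio of control to TGF-β, so no fold is given. Control arrays 1 and 3 also had the lowest blank SD, 1.79 and 1.78 brightness units, against 3.98 to 7.63 on the other 4 arrays. Over all human probes, 61 were detected on 1 or more control arrays and on no TGF-β array, and 27 the other way round. The pattern of miR-301a-3p, detection on control arrays 1 and 3 alone, was shared by 15 probes in all, and that of miR-454-3p, detection on control array 1 alone, by 33. The part of the detection limit in these patterns was not tested. In RNA pooled from many cells, fewer cells with a miRNA and less of it per cell cannot be told apart.

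MiR-301b, which shares its locus with miR-130b-3p and all but 2 bases with miR-301a-3p, was below the blank mean on every array. Its place was -2.05, -0.98 and -1.97 SD from that mean in controls 1, 2 and 3 and -3.28, -2.16 and -0.96 SD after TGF-β. Control and TGF-β arrays overlapped in this measure. Of all human probe signals, 21.2% were above the blank mean, so a place below it is the common state of a probe that is not detected. Within the cluster on chromosome 22, miR-130b-3p was detected on every array and miR-301b on none.

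**Figure D4:**
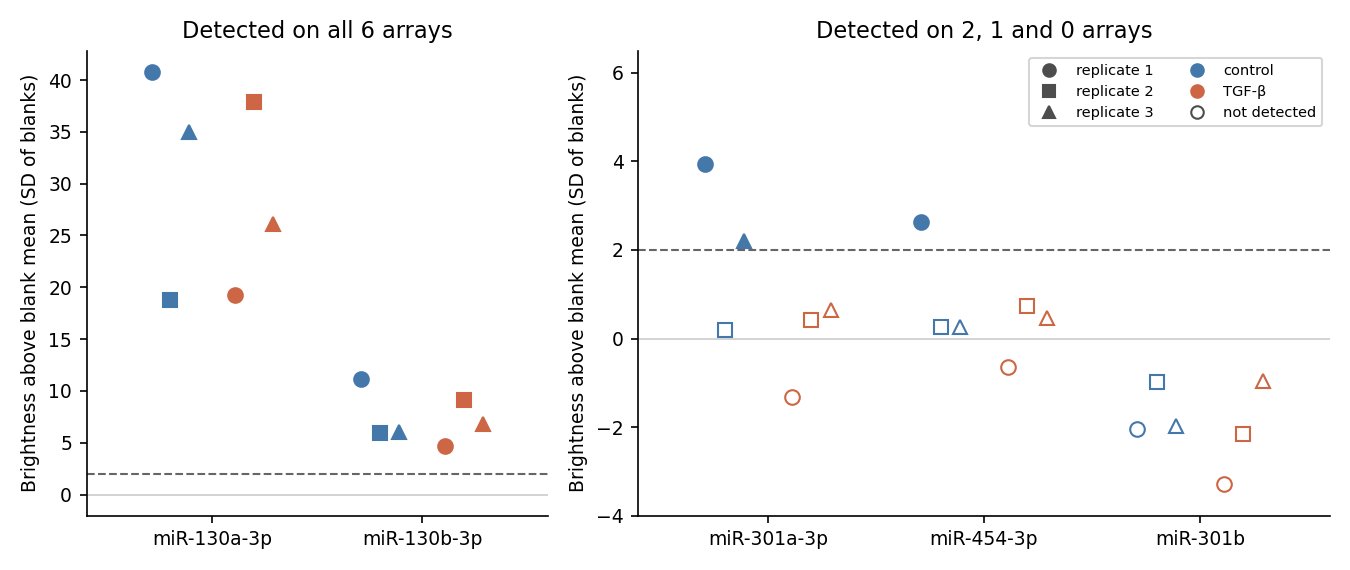
Brightness above the mean of the blank spots, in SD of the blank spots, for the 5 members on each array, with the left and right panels on different scales. Filled symbols are detected, open symbols are not, and the dashed line is the limit of 2 SD. MiR-130a-3p and miR-130b-3p lie above the line on all 6 arrays, miR-301a-3p on control arrays 1 and 3, miR-454-3p on control array 1 and miR-301b on none.

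The other arms of the precursors, miR-130a-5p, miR-130b-5p, miR-301a-5p and miR-454-5p, were below the blank mean on all 6 arrays, between -4.16 and -0.23 SD from it. The same held for 2 other miRNAs that carry the family seed, shown because their bases 2 to 8 are those of the members.
miR-3666: cAGUGCAAguguagaugccga
miR-4295: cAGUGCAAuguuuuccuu
MiR-3666 lay between -3.95 and -0.28 SD and miR-4295 between -3.49 and -1.32 SD, and neither was detected on any array. MiR-4295 shares its first 10 bases with miR-130b-3p, and it was not detected on the arrays that detected miR-130b-3p.

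The miR-148/152 family is shown because its seed is the family seed moved by 1 base, so that both seeds hold the letters AGUGCA, offset by 1 position.
miR-148a-3p: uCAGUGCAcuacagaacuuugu
miR-148b-3p: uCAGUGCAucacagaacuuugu
miR-152-3p: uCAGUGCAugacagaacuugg
None of these 3 was detected on any array, and all 18 of their readings were below the blank mean, from -4.16 to -0.45 SD.

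The miRNAs whose log2 signals followed the 2 members most closely over the 6 arrays were named for each, out of 291 compared. For miR-130a-3p these were miR-138-5p (Pearson r = 0.96) and miR-16-5p (r = 0.89), and for miR-130b-3p they were miR-98-5p (r = 0.99) and miR-3665 (r = 0.97). MiR-130a-3p and miR-130b-3p correlated with each other at 0.71, and at 0.71 after the group means were removed. These values describe 6 arrays that went through the same scaling, and those of the named miRNAs are the highest among all compared.

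Of 26 miRNAs listed as regulated by TGF-β or as regulators of EMT, 21 were expressed, and none passed the adjusted p in limma in either direction. Of the 21, 13 were higher and 8 lower with TGF-β, and their median log2 change was 0.048 against 0.013 for all expressed miRNAs. An unadjusted p under 0.05 was reached by 3 of the 21, where the share over all expressed miRNAs was 6.5%, and the groups did not overlap for 6 of the 21, where that share was 9.91%. The 3 were miR-181a-5p, miR-181b-5p and miR-23a-3p, named after their values were seen, with log2 changes of 0.77, 0.77 and 0.50 (limma adjusted p = 0.43, 0.43 and 0.67). The list was chosen with earlier results of these data known, so its counts are a description and no test of the list. The miR-200 family, which maintains the epithelial state, had log2 changes in both directions, at 0.40 for miR-200c-3p, 0.30 for miR-200b-3p, 0.048 for miR-429, -0.078 for miR-200a-3p and -0.65 for miR-141-3p (limma adjusted p between 0.70 and 0.99). MiR-21-5p, whose maturation SMAD proteins are known to promote, had a log2 change of -0.095 (limma adjusted p = 0.99). No family member is on that list.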

How the data were processed

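The 6 arrays (3D-Gene Human miRNA Oligo chip, 1 colour, Cy5) were grouped by the labels of the samples. The authors deposited 2 kinds of intensity values: the scanner's median brightness of each spot, not normalized, and intensity values adjusted per array to a median of 25, with undetected miRNAs empty. The second were a straight line of the first (largest residual 0.050 to 0.053) and were used as an alternative. A spot that failed at any scanner gain was treated as missing (0 to 2 human probes per array). The blank mean was subtracted, arrays were scaled on the probes detected on all 6 arrays, undetected signals were set to the array's lowest detected signal, and log2 was taken. Groups were compared with limma 3.58.1 in R 4.3.3 over 323 expressed miRNAs (Benjamini-Hochberg). The limma step was tested on simulated data. The number of arrays limits the precision.

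The named miRNAs are the members, the other arms of their precursors, miRNAs with the same seed or the seed moved by 1 base, and the 2 most correlated miRNAs of each member detected on all 6 arrays. Members and lists were chosen with earlier results of these data known. Deviations of same-numbered arrays of the 2 groups correlated at 0.12, 0.24 and 0.33 across 322 miRNAs. Differently numbered arrays were not compared, so these correlations do not show that the numbers pair arrays. Neither labels nor methods say what a number marks. The main test was unpaired, and a replicate block was an alternative. The alternatives were the authors' values, normexp background with an offset of 50, 4 other scalings, quantile normalization, 2 other filters and no lowest value. Further ones were other variance models, blocks for replicate or chip, the 4 arrays of chip 1, the methods' t-test, and the removal of each array in turn.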

Additional observations from a re-analysis of the deposited data

How the results depend on the processing

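No alternative brought miR-130a-3p or miR-130b-3p past the adjusted p (limma adjusted p between 0.73 and 0.999 over 21 settings each, where one setting is the methods' t-test), and the cause of the sign changes below was not tested. The log2 change of miR-130a-3p, 0.12, was above 0 in 16 of these settings, a count that includes settings that cannot move it. The authors' values gave -0.14, scaling on the probes an array itself detected gave -0.095, and a chip block and chip 1 alone gave -0.10, and with single arrays left out it ranged from -0.022 to 0.23. That of miR-130b-3p, 0.13, was above 0 in 14. The same settings gave -0.13, -0.084 and -0.12, normexp gave -0.088, and it ranged from -0.15 to 0.36 with arrays left out. The within-array difference between the groups, -0.011, was 0.20 with normexp (exact permutation p = 0.10), 0.014 with chip 1 alone and -0.19 to 0.25 with arrays left out. The normexp offset makes this difference depend on the brightness of an array. The replicate block pairs arrays of the same number. Each number has a control and a TGF-β array, so this block cannot move a difference between the groups. The changes of 0.12 and 0.13 and the within-array difference of -0.011 were therefore fixed in advance and are no check. Only the spread and the p-values could move (limma adjusted p = 0.98 for both miRNAs), and no call changed.

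The count past the adjusted p, 0, rose to 1 with the methods' t-test (miR-4521) and 0 to 1 with arrays left out, where miR-629-5p passed without TGF-β array 3 (limma adjusted p = 0.027), both names given after their values were seen. The number whose groups do not overlap, 32 (9.91% of 323 miRNAs), was 6 (1.72% of 349) in the authors' values. It was 3 (0.93% of 323) with scaling on the probes an array itself detected. With single arrays left out it was 40 to 103 (12.4% to 30.4% of those expressed). With chip 1 alone it was 208 (60.8% of 342). There 1 array stands against 3, and fewer arrays overlap less often by construction, so 208 cannot be compared with 32. Signal over background limits miR-301a-3p, miR-454-3p and miR-301b, for which no change could be tested.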
